A study of Homo sapiens with 2 samples.

Results

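The cytosolic ribosomal protein genes were examined in PC3 cells after knockdown of the transcriptional coactivator SUB1. They were taken by name, as genes called RPL or RPS with a number and at most 1 of the letters A, L or X, together with RPLP0, RPLP1, RPLP2 and RPSA, and every probe of each gene was used. The array held 81 such genes of 30484 gene names, with 199 probes. Of these, 193 probes of 80 genes passed the filter on dim spots, and the probe of RPSA was among the 6 left out. PC3 is an established, metastasis-derived human prostate cancer cell line. On each of 2 dual-colour oligonucleotide arrays, RNA of PC3 cells given a SUB1 siRNA duplex (Cy5) was hybridised with RNA of PC3 cells given Non-T siRNA (Cy3), so each of SUB1 siRNA 1 and SUB1 siRNA 2 had 1 array. Cells were transfected a second time and harvested 72 h after the first transfection, and whether both arrays carried the same Non-T extract was not stated in the sources used here. The values are loess-normalised log2 ratios of the knockdown over Non-T, so that a ratio of -1 is a level 2-fold lower. A single siRNA has no replicate, both arrays lay on 1 slide and no dye was swapped, so dye and siRNA effects on a probe cannot be told apart.

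The cytosolic ribosome is built from a large subunit, whose protein genes are named RPL, and a small subunit, whose protein genes are named RPS. The small subunit reads the mRNA, and the large subunit joins amino acids. Ribosomal protein mRNAs are among the most abundant in a dividing cell, and most of them begin with a run of pyrimidines, the terminal oligopyrimidine (TOP) tract, through which mTOR signalling controls their translation. Growing tumour cells are known for a high output of ribosomes.

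Start sites of 9 genes named below are shown because most ribosomal protein transcripts carry the TOP tract there, which the naming rule did not use. The start site of RPS2 is not shown. Each line gives 15 bases before and 15 bases from the annotated first transcribed base on the sense strand (RefSeq, GRCh38.p14), with a run of at least 5 C or T bases that begins with C at the first transcribed base in capitals. By the loess-normalised ratios, RPS10 and RPL27A were low with 1 siRNA, RPS3 and RPLP0 low with both, and RPS27 and RPL38 high with both. RPL6, RPS26 and RPS28 lacked such a run at their annotated start.
RPS10, chr6:34426055-34426084, minus strand: ccgcgcatgctccttCCTTTCCagccccgg
RPL27A, chr11:8682777-8682806, plus strand: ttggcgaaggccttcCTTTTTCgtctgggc
RPS3, chr11:75399503-75399532, plus strand: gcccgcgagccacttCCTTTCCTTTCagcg
RPLP0, chr12:120201097-120201126, minus strand: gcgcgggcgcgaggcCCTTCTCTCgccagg
RPS27, chr1:153990747-153990776, plus strand: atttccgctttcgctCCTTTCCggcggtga
RPL38, chr17:74203663-74203692, plus strand: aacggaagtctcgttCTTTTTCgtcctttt
RPL6, chr12:112409271-112409300, minus strand: ggggagacggcgcgtgcactgtgttcctgg
RPS26, chr12:56041903-56041932, plus strand: gagacacataacctcgattttcttccgcca
RPS28, chr19:8321481-8321510, plus strand: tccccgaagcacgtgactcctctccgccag

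Of the 81 genes, 64 had start sites in the sequences used, and 46 of them (71.9%) held a tract of at least 5 bases at a start, compared with 1404 of 27305 genes of all kinds (5.14%). Members on chromosome 8, such as RPS20, were left out of the 64, a step not applied to the genes of all kinds. The tracts were between 5 and 19 bases long. The 45 measured genes with a tract had a median gene ratio (the mean of a gene's probes) of -0.05 with SUB1 siRNA 1 and -0.02 with SUB1 siRNA 2. The 18 genes without one had medians of -0.13 and 0.00. This split rests on the exact annotated base. For example, an annotated start of RPL19 is a T within a run of pyrimidines, and RPL10A starts just before such a run. Both counted as genes without a tract. Genes at both ends of the range held a tract: RPS10 was the lowest gene of that group with siRNA 1 at -1.42, and RPL38 was the highest at 0.45.

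SUB1 itself was low on both arrays. Its 4 probes lay between -3.75 and -1.81 with siRNA 1, and between -3.50 and -1.57 with siRNA 2. The epithelial genes KRT8, KRT18 and TACSTD1 (EPCAM) were well above background, and the probes for the leukocyte gene PTPRC were not. Of 3 probes for KLK3, a prostate luminal gene that PC3 is known to lack, 1 was bright, with a mean log2 intensity of 14.56 on the siRNA 1 array. The fibroblast gene COL1A1 and the endothelial gene PECAM1 were dim but passed the filter.

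With loess, which centres ratios near 0 at each intensity, the ribosomal protein mRNAs were close to the Non-T level as a group. Their level against Non-T is not settled, because it changed with the normalisation. The median log2 ratio of the 193 probes was -0.11 with SUB1 siRNA 1 and -0.02 with SUB1 siRNA 2, where the median of all 25673 probes kept was 0.01 and 0.02. On the siRNA 1 array 134 probes (69.4%) were below 0, compared with 47.5% of all probes, and on the siRNA 2 array 103 (53.4%), compared with 47.6%. The direction of these medians depended on the normalisation within an array: centring each array on its median in place of loess gave 0.230 and 0.355. Ribosomal protein mRNAs lie at the bright end of the array, with a median log2 intensity of 13.96 against 7.79 for all probes, and 95 of the 498 probes with an intensity of at least 14 belonged to them. The other 403 bright probes moved in the same way under median centring, from medians of 0.13 and 0.09 to 0.54 and 0.53. The 95 bright ribosomal protein probes had medians of -0.06 and 0.03 with loess, and of 0.34 and 0.48 with median centring, so they lay below the other bright probes under both scalings.

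The siRNA 2 ratio was above the siRNA 1 ratio for 138 of the 193 probes (71.5%), compared with 50% of all probes. The median difference, siRNA 2 minus siRNA 1, was 0.11, and it stayed above 0 under every scaling tried. The 121 probes of the large subunit had medians of -0.09 and 0.01, and the 72 probes of the small subunit had medians of -0.15 and -0.07. Between the arrays, the Non-T channel of the ribosomal protein probes differed by a median of 0.00 (SD 0.09) and the SUB1 siRNA channel by 0.07 (SD 0.32), where the SDs over all probes were 0.117 and 0.305. The channel values were taken after the mean intensities were given the same distribution on both arrays, which draws differences between the arrays towards 0.

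**Figure D1:**
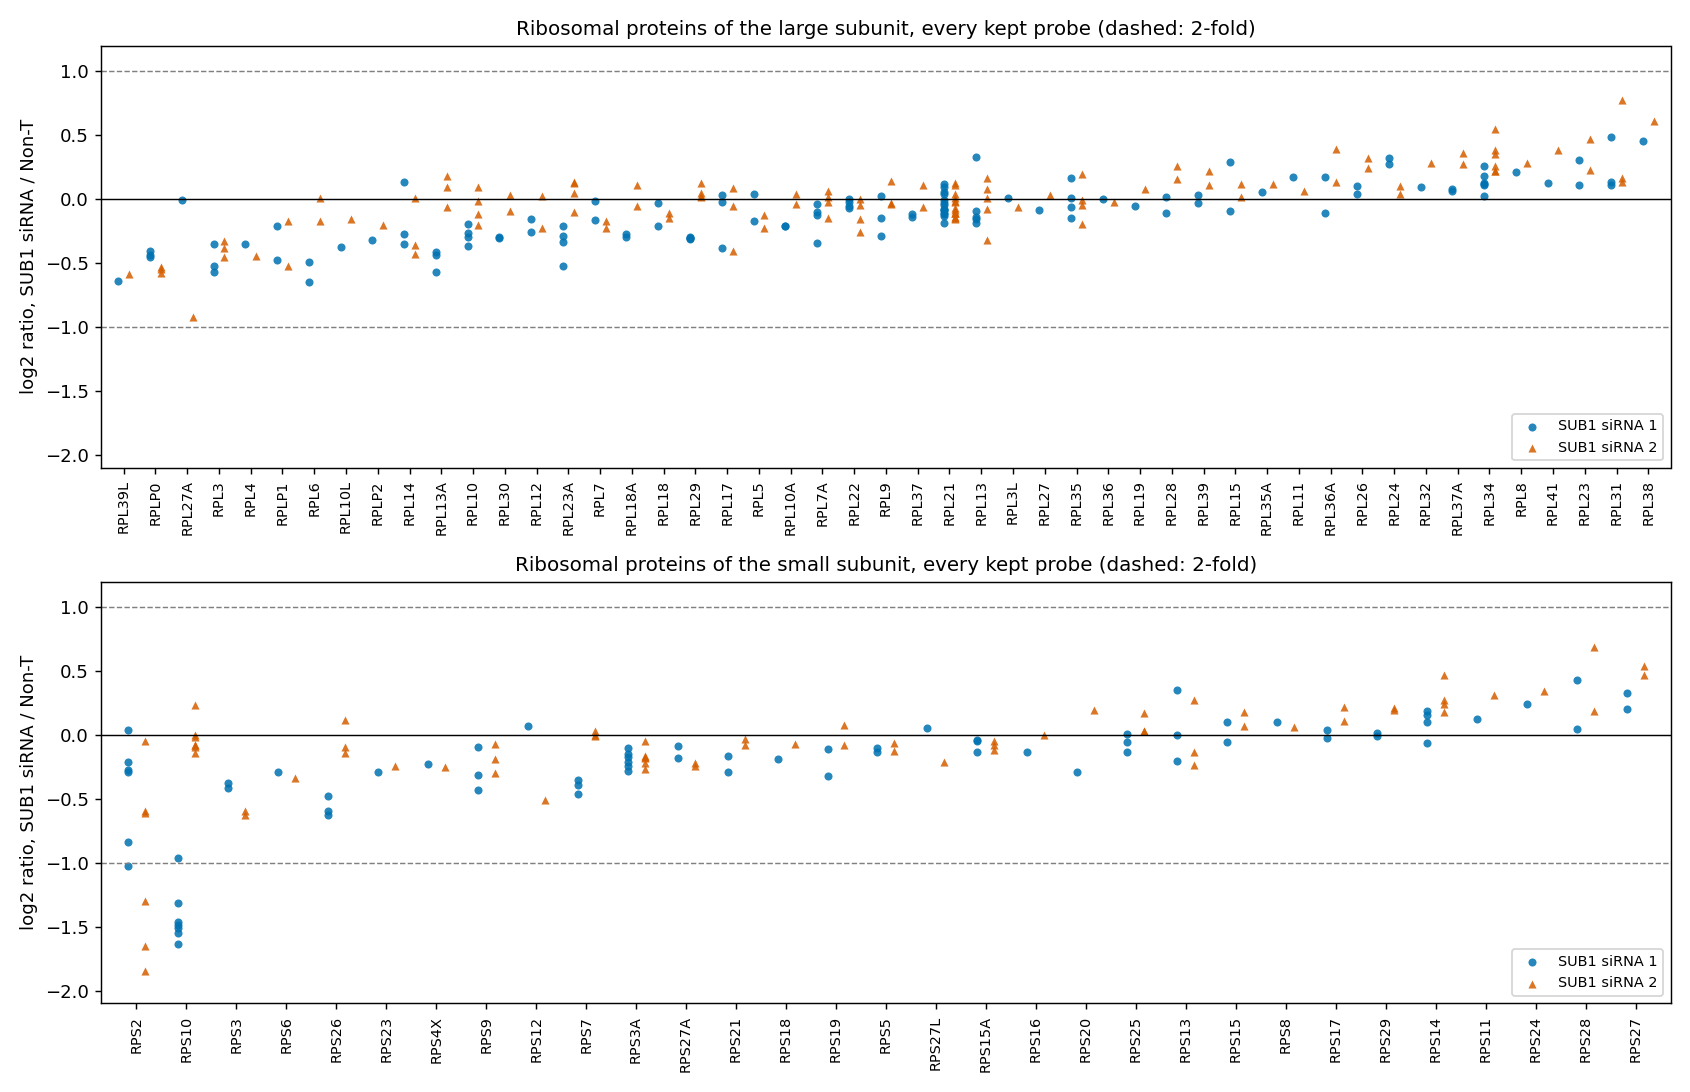
Log2 ratio of knockdown over Non-T for every kept probe of each ribosomal protein gene, large subunit above and small subunit below, ordered by the gene's mean over both siRNAs; circles are SUB1 siRNA 1, triangles SUB1 siRNA 2, and dashed lines mark 2-fold. Most genes lie between the dashed lines, RPS10 lies low with siRNA 1, and RPS2 lies low with siRNA 2.

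On the whole, probes of the same gene varied less than gene means did, but in some genes the probes differed widely. For the 49 genes with at least 2 RefSeq probes at the gene's own locus and strand, RPS10 and RPS2 left out, the SD among probes of a gene was 0.117 with siRNA 1 and 0.127 with siRNA 2, and the SD between gene means was 0.212 and 0.225. The technical error among spots of the same probe was smaller, with a median SD of 0.0781 for siRNA 1 and 0.0741 for siRNA 2. The widest range among the probes of 1 of these 49 genes was 0.559 with siRNA 1 and 0.512 with siRNA 2. The 2 probes of RPLP1, at nearly the same position, gave -0.48 and -0.21 with siRNA 1 and -0.52 and -0.17 with siRNA 2. All kept probes were below 0 on both arrays in 22 of the 80 genes and above 0 on both arrays in 17, under loess. Only 54 of the 80 genes had 2 or more kept probes. By probe, 94 of 193 were below 0 on both arrays and 50 above, where 8112 and 9353 of all 25673 probes were. By position along the transcript, the most 3′ probe was above the most 5′ probe in 29 of 51 genes with siRNA 1 and in 27 with siRNA 2.

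By the 2-fold rule, 7 of the 193 probes were lower with SUB1 siRNA 1, where 0.557% of all probes were, and none was higher, where 0.195% were. With SUB1 siRNA 2, 3 probes were 2-fold lower, where 0.923% of all probes were, and none was higher, where 0.526% were. All of them belonged to RPS10 and RPS2. At 1.5-fold, 13 probes were lower with siRNA 1 (2.92% of all probes) and 0 higher (2.21%), and 8 were lower with siRNA 2 (3.94%) and 3 higher (3.19%). With both siRNAs, 2 probes were at least 1.5-fold lower, both of RPS2 (1.15% of all probes), and 0 were higher (0.717%). The 3 higher with siRNA 2 were single probes of RPL31, RPL38 and RPS28. With loess the other 78 genes stayed within 2-fold on both arrays. With median centring, single probes of RPS28 (1.24), RPL38 (1.14) and RPS27 (1.09) were beyond 2-fold with siRNA 2, 5 probes of RPS10 were with siRNA 1, and 2 of RPS2 were with siRNA 2. With Feature Extraction's processed signals RPL27A was beyond 2-fold with siRNA 2 (-1.04).

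RPS10, a protein of the head of the small subunit that is mutated in some patients with Diamond-Blackfan anaemia, was low with SUB1 siRNA 1 and near Non-T with SUB1 siRNA 2. Its 6 RefSeq probes lie at the gene on chromosome 6 (hg18, the build named in the array file, minus strand, between 34493215 and 34500896). Taken from 5′ to 3′, their log2 ratios with siRNA 1 were -1.55, -1.47, -1.49, -1.63, -1.51 and -1.31. With siRNA 2 the same probes gave -0.14, 0.00, -0.08, -0.09, -0.08 and 0.23. The probes read the same RNA on 1 array per siRNA and are no replicates: all 6 were at least 2-fold below Non-T with siRNA 1 and none was with siRNA 2. With median centring they lay between -1.26 and -0.88 with siRNA 1, where only the most 3′ probe was within 2-fold, and between 0.26 and 0.72 with siRNA 2. The probe with the lowest ratio (A_32_P164630) had normalised log2 intensities of 14.71 in Non-T and 13.08 in SUB1 siRNA 1 on the first array, and of 14.66 in Non-T and 14.57 in SUB1 siRNA 2 on the other, so the SUB1 siRNA 1 channel stood apart and the Non-T channels were alike. That probe kept 32.2% of its Non-T level with siRNA 1 and 93.8% with siRNA 2. The difference between the siRNAs was 1.41 to 1.54 over the 6 probes. A seventh RPS10 probe, designed from a cDNA that the array file places on chromosome 11 (hg18, chr11:46406872-46406931), gave -0.97 and -0.02. Copies of ribosomal protein genes elsewhere in the genome are common, and which transcripts that probe binds was not tested.

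RPS2, a small-subunit protein near the site where mRNA enters the ribosome, was low with both siRNAs and lower with SUB1 siRNA 2. Its 3 RefSeq probes on chromosome 16 (hg18, minus strand), from 5′ to 3′, gave -1.03, -0.84 and -0.29 with siRNA 1. With siRNA 2 they gave -1.85, -1.65 and -1.30. The siRNA 2 values were all beyond 2-fold and all below the siRNA 1 values, and on both arrays the ratio was nearer 0 towards the 3′ end. The most 5′ probe (A_32_P14544, chr16:1954363-1954505) kept 49.1% of its Non-T level with siRNA 1 and 27.8% with siRNA 2. The most 3′ probe (A_23_P106708, chr16:1952082-1952138) was the brightest and kept 81.9% and 40.7%; whether its brightness bears on the smaller ratio was not tested. Its siRNA 1 ratio was 0.20 with median centring, whereas its siRNA 2 ratio stayed between -1.55 and -0.80 under every alternative. A pair of dim probes named RPS2 lie on the opposite strand and gave -0.27 and -0.21 with siRNA 1 and -0.60 and -0.61 with siRNA 2, which were -1.33 and -1.57 with the processed signals. A further dim probe at the locus gave 0.03 and -0.04.

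RPL27A, a protein of the large subunit, came close to 2-fold with 1 siRNA. Its only probe (hg18, chr11:8663843-8663902, plus strand) was at -0.01 with SUB1 siRNA 1 and -0.92 with SUB1 siRNA 2. The Non-T intensities were 15.35 and 15.57, and the SUB1 siRNA intensities were 15.35 and 14.64. RPS12, a small-subunit protein, had the same direction of difference, with 0.07 and -0.51. These rest on 1 probe each, and both siRNA 2 values stayed below 0 under every alternative.

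**Figure D2:**
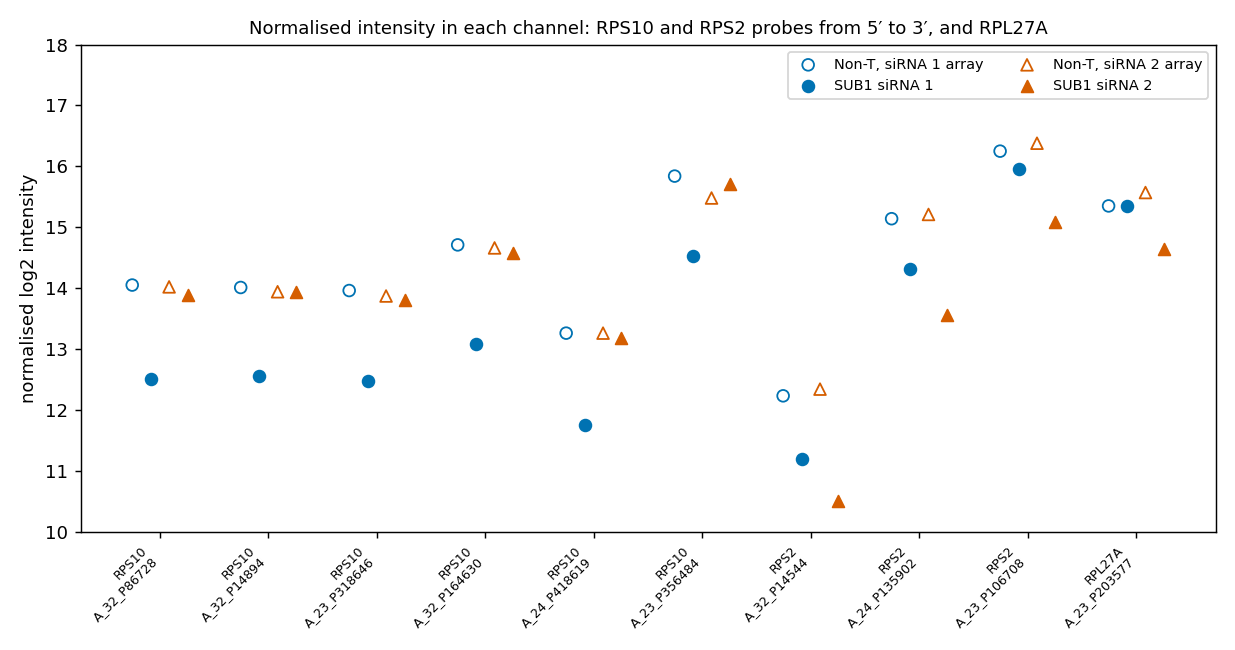
Normalised log2 intensity in each of the 4 channels for the 6 RefSeq probes of RPS10 and 3 of RPS2, from 5′ to 3′ within each gene, and for RPL27A; open symbols are Non-T, filled symbols SUB1 siRNA, circles the siRNA 1 array and triangles the siRNA 2 array. For RPS10 the filled circles stand below the other 3 symbols, and for RPS2 the filled triangles are lowest.

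Between the siRNAs, 6 probes were at least 2-fold higher with siRNA 2, where 0.608% of all probes were, and all were RPS10. A single probe, the most 3′ of RPS2, was at least 2-fold lower with siRNA 2, where 0.541% were. The next difference above 0 was that of the seventh RPS10 probe, at 0.95, followed by those of RPL13A, RPS26, RPL6 and RPS20. RPL13A, a large-subunit protein also known for silencing inflammatory mRNAs in the GAIT complex, gave -0.57, -0.44 and -0.42 with siRNA 1 and -0.06, 0.18 and 0.09 with siRNA 2. RPS26, a small-subunit protein at the mRNA exit site, gave -0.62, -0.60 and -0.48 with siRNA 1 and -0.14, -0.09 and 0.12 with siRNA 2. RPL6 gave -0.65 and -0.49 with siRNA 1 and -0.17 and 0.01 with siRNA 2. In these genes every probe was lower with siRNA 1 than with siRNA 2. With median centring the probes of RPL13A lay between -0.19 and 0.05 with siRNA 1 and between 0.36 and 0.62 with siRNA 2. Those of RPS26 and RPL6 lay between -0.33 and -0.11 and between 0.19 and 0.43, and that of RPS20 at 0.12 and 0.64. With siRNA 1, RPS26 and RPL6 thus stayed below 0. The order of the siRNAs held in all of these genes, while the sizes of the ratios against Non-T changed. RPS7 had the same pattern, with -0.46 to -0.36 and -0.01 to 0.03, as did the only probe of RPS20, with -0.29 and 0.20. RPL6, RPS7, RPS26, RPL4 and RPS23 were named after their values were seen.

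**Figure D3:**
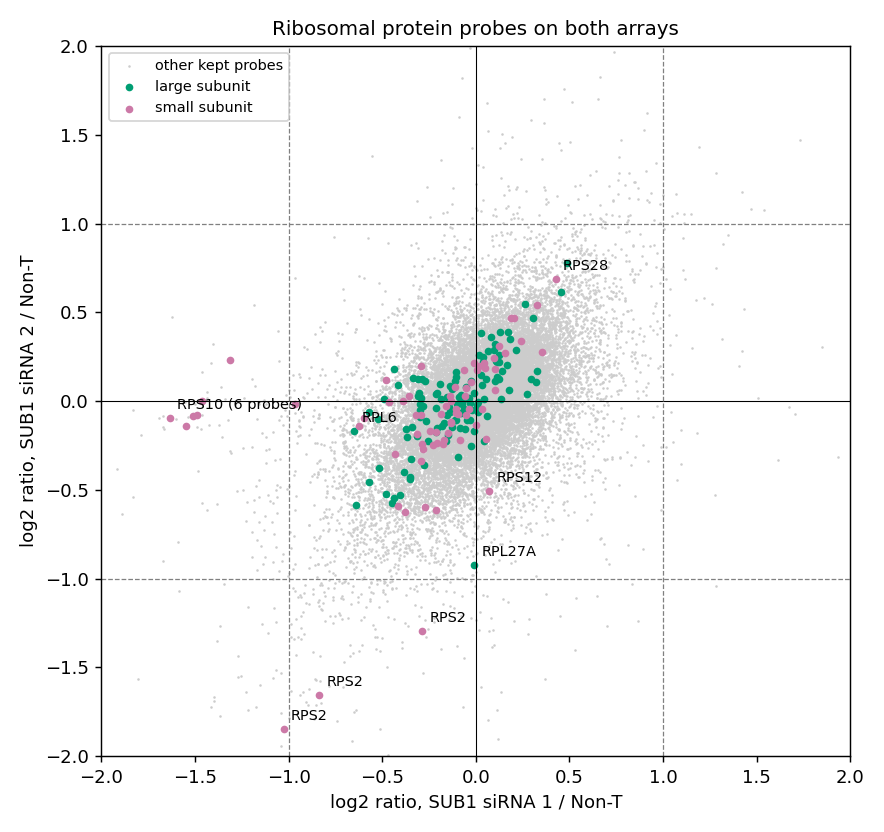
Log2 ratio with SUB1 siRNA 1 (horizontal) against SUB1 siRNA 2 (vertical) for each large-subunit probe (green) and small-subunit probe (pink), with the other kept probes in grey and dashed lines at 2-fold; both axes end at 2, so probes beyond that are not drawn. The 6 RPS10 probes of its own locus lie left of the 2-fold line near 0 on the vertical axis, and 3 RPS2 probes lie below the 2-fold line.

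Every probe of RPLP0, RPS3 and RPL3 was below 0 with both siRNAs. RPLP0, the base of the acidic stalk that recruits the translation factors, gave -0.41, -0.44 and -0.45 with siRNA 1 and -0.53, -0.55 and -0.58 with siRNA 2. One of these probes was spotted 10 times, with an SD among spots of 0.06 and 0.05. RPLP1 and RPLP2, which hang on that base, gave -0.48 and -0.21 for the probes of RPLP1 and -0.32 for RPLP2 with siRNA 1, and -0.52, -0.17 and -0.20 with siRNA 2. RPS3, which lines the mRNA entry site and is also known in DNA repair, gave -0.42 and -0.38 with siRNA 1 and -0.59 and -0.63 with siRNA 2. RPL3, next to the peptidyl transferase centre, gave -0.57, -0.52 and -0.35 with siRNA 1 and -0.45, -0.38 and -0.33 with siRNA 2. RPL4, in the wall of the exit tunnel, gave -0.35 and -0.44. Both probes of RPS3 stayed below 0 under every alternative, whereas with median centring the brightest probe of RPLP1 was at 0.28 and 0.35, RPLP2 was at 0.16 and 0.30, the brightest probe of RPLP0 was at 0.02 with siRNA 1, and that of RPL3 was at 0.04 and 0.09.

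Other proteins of known role gave values on both sides of 0. RPS6, the target of the S6 kinases, gave -0.29 and -0.34, and RPS4X and RPS23 gave between -0.29 and -0.23. RPL5 and RPL11, which bind MDM2 when ribosome assembly is disturbed, gave -0.17 and 0.04 for RPL5 and 0.18 for RPL11 with siRNA 1, and -0.12, -0.23 and 0.06 with siRNA 2. RPS19 and RPS14, known from Diamond-Blackfan anaemia and from the anaemia of 5q deletion, gave -0.32 and -0.11 for RPS19 and -0.06 to 0.19 for RPS14 with siRNA 1, and -0.08, 0.08 and 0.18 to 0.47 with siRNA 2. RPL23A and RPL35, at the mouth of the exit tunnel, ranged from -0.52 to -0.21 and from -0.15 to 0.17 with siRNA 1, and from -0.10 to 0.13 and from -0.19 to 0.20 with siRNA 2. RPS27A, made as a fusion with ubiquitin, lay between -0.24 and -0.08, RPL12 between -0.26 and 0.02, and RPL22 between -0.25 and 0.01. With median centring the brightest probes of RPS6, RPS4X, RPL12, RPL22 and RPS27A were above 0 on both arrays.

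The highest ratios belonged to genes of both subunits. RPL38, which is known for its part in translating Hox mRNAs in mouse, gave 0.45 and 0.61 on its only probe. RPS27 gave 0.33 and 0.20 with siRNA 1 and 0.54 and 0.47 with siRNA 2, so both of its probes were higher with both siRNAs. RPS28 gave 0.43 and 0.69 on its brighter probe and 0.05 and 0.19 on the other. RPL31 gave 0.49 and 0.78 on a dim probe from a cDNA, while its 2 RefSeq probes lay between 0.11 and 0.17 on both arrays. RPL34 had 6 probes between 0.03 and 0.26 with siRNA 1 and between 0.22 and 0.55 with siRNA 2. The brightest probes of RPL38, RPS27, RPS28, RPL31 and RPL34 stayed above 0 under every alternative, with sizes that depended on the scaling. For RPL34 and RPL31 the lowest siRNA 1 ratios were only 0.01 and 0.07, under the technical SD of 0.0781. The dimmer RPS28 probe fell to -0.13 with siRNA 1 under the alternatives. For siRNA 1 the lowest and highest ratios were 0.18 and 0.95 for RPS28, 0.24 and 0.95 for RPL38, and 0.06 and 0.84 for RPS27. For siRNA 2 they were 0.37 and 1.24, 0.27 and 1.14, and 0.26 and 1.09.

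The paralogs named with a final L did not move together. RPL39L, a copy of RPL39 best known from testis and from tumours, gave -0.64 and -0.58, whereas RPL39 itself lay between -0.03 and 0.04 with siRNA 1 and between 0.12 and 0.22 with siRNA 2. RPL10L, a testis copy of RPL10, gave -0.37 and -0.16, just below the 4 probes of RPL10 with siRNA 1 (-0.37 to -0.19) and within their range with siRNA 2 (-0.20 to 0.10). The RPL10L probe had a mean log2 intensity of 13.38, and whether it also binds RPL10 transcripts was not tested. RPS27L, a target of p53, gave 0.06 and -0.21, and RPL3L, the muscle copy of RPL3, was dim at 0.01 and -0.06. The values of RPL39L stayed below 0 under every alternative.

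In the limma test of the mean log2 ratio of both siRNAs against 0, no ribosomal protein probe passed an adjusted p of 0.05 (Benjamini-Hochberg over 25673 probes, of which 0.0117% passed lower and 0% higher, all of them probes of SUB1). At an unadjusted p under 0.05, 26 ribosomal protein probes were lower, where 10.5% of all probes were, and 12 were higher, where 10.7% were. The smallest adjusted p among them was 0.103, for the most 5′ probe of RPS2. RPL39L followed with an adjusted p of 0.104 by limma. For RPS10 the test, which averages both siRNAs, gave adjusted p values between 0.254 and 0.453 by limma. The control's own spread does not enter this test. Without the filter on dim probes 2 of 199 ribosomal protein probes passed, of RPS2 (adjusted p 0.0459 by limma) and RPL39L (adjusted p 0.0493 by limma). A similar share of all 40999 probes passed, with the count given under the dependence on processing.

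**Figure D4:**
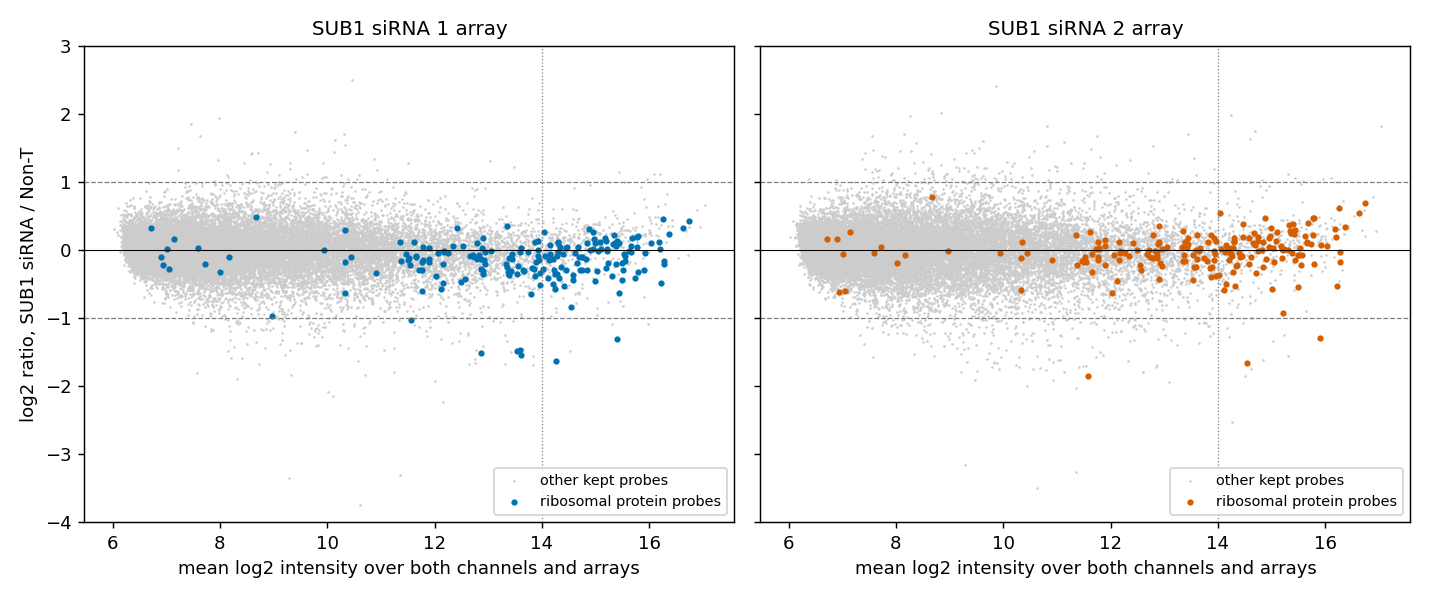
Log2 ratio (vertical) against mean log2 intensity (horizontal) for the ribosomal protein probes (coloured) and the other kept probes (grey), SUB1 siRNA 1 left and SUB1 siRNA 2 right; the dotted line is an intensity of 14 and dashed lines mark 2-fold. The ribosomal protein probes gather at the bright end, where 95 of 498 probes above the dotted line are theirs.

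Genes that work beside the ribosomal proteins were taken from lists, whose lowest and highest probes are given by the mean of both siRNAs. Ribosomal proteins outside the naming rule (6 genes with 14 probes, FAU, RPL36AL and RPL22L1 among them) had medians of 0.08 and 0.03. Their lowest probe was RPL22L1 with -0.49 and -0.47, and their highest was RPL26L1 with 0.29 and 0.36. None of the 14 was beyond 1.5-fold on either array. Of all probes, 2.92% were 1.5-fold lower and 2.21% higher with siRNA 1, and 3.94% and 3.19% with siRNA 2.

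Translation factors and other genes with a TOP tract (14 genes, 42 probes) had medians of -0.16 and -0.20 with loess. On the 2 arrays 32 (76.2%) and 33 (78.6%) probes were below 0, compared with 47.5% and 47.6% of all probes. Their median log2 intensity was 13.19, against 7.79 for all probes. No median-centred values are given for this list, so whether these signs depend on the scaling was not tested. PABPC1, the poly(A)-binding protein, gave -0.67, -0.66 and -0.56 with siRNA 1 and -1.14, -1.07 and -1.08 with siRNA 2. BTF3, a part of the nascent polypeptide-associated complex, gave -0.55, -0.51 and -0.44 with siRNA 1 and -1.26, -1.01 and -0.93 with siRNA 2. All 6 probes of this pair were lower with siRNA 2 than with siRNA 1. EEF2, the elongation factor of translocation, was highest with 0.22 and 0.45. No probe of this list passed the adjusted p in limma, with 16 lower and 1 higher at an unadjusted p under 0.05, where 10.5% and 10.7% of all probes were.

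Ribosome biogenesis genes (33 genes, 48 probes) had medians of -0.05 and -0.13. BOP1 and FBL, which process and methylate rRNA, were lowest. BOP1 gave -0.43 and -0.80, the lower probe of FBL -0.62 and -0.51, and its other probe -0.33 and -0.24. The highest were NCL and NOLA3. NOLA3 gave 0.145 and 0.48, the higher probe of NCL 0.45 and 0.21, and its other probe -0.03 and -0.05. Mitochondrial ribosomal proteins (77 genes, 106 probes), made in the nucleus for the separate ribosome of mitochondria, had medians of 0.03 and -0.02. Their lowest probe was MRPS10 with -0.80 and -0.65, and their highest was MRPL54 with 0.49 and 0.47. None of the 106 probes was beyond 2-fold. With siRNA 1, 0.557% of all probes were 2-fold lower and 0.195% higher, and with siRNA 2 0.923% and 0.526%.

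**Figure D5:**
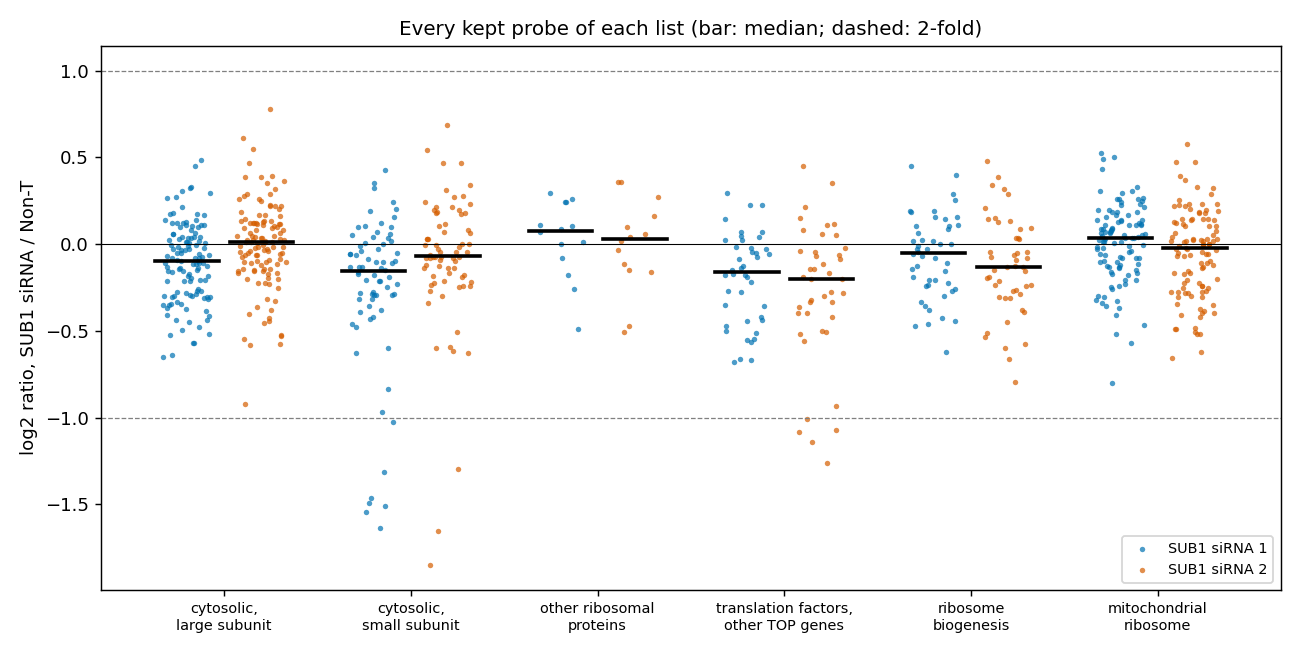
Log2 ratio of every kept probe of the cytosolic ribosomal proteins by subunit and of the lists beside them (other ribosomal proteins, translation factors and other TOP genes, ribosome biogenesis, mitochondrial ribosome), SUB1 siRNA 1 in blue and SUB1 siRNA 2 in orange, with black bars for medians and dashed lines at 2-fold; points are spread sideways for sight only. Probes beyond 2-fold are in the small subunit with both siRNAs and among the translation factors with siRNA 2.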

How the data were processed

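Expression was measured in PC3 cells by 2 dual-colour Agilent arrays from 1 slide, each with Non-T siRNA in Cy3 and a SUB1 siRNA in Cy5. The authors scanned the arrays with Agilent Feature Extraction 9.5.1.1 and deposited the intensity of each spot and its local background, and a table of log2 ratios normalised by loess with the package agilp. That table's column medians were -0.00545 and -0.00689; against the scanner values its direction was Cy5 over Cy3 and its slope was 0.919 and 0.945, and it served as an alternative. Its centring is not stated. The deposited files also hold the log10 ratio of Cy5 over Cy3 that the authors' scanner software computed, which was looked at only to settle direction.

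In limma 3.58.1 (R 4.3.3), normexp with an offset of 50 was applied to the mean signal and median local background, controls were dropped, and loess with a span of 0.3 was run per array. For the intensities of single channels, the mean log2 intensities were also given the same distribution on both arrays by quantile normalisation. Spots with an outlier flag (112 and 100) were left out and the spots of each probe averaged. Probes needed a share of 0.5 of their spots well above background, in either channel, on both arrays (25673 of 41000 probes). No spot was saturated. A changed probe was 2-fold from Non-T on an array, as in the methods. The mean of both siRNAs was tested against 0 with lmFit and eBayes, with Benjamini-Hochberg adjustment. The fit was tested on simulated data. The array file names build hg18; start sites came from RefSeq, GRCh38.p14. Of 193 kept probes, 179 lay at the named gene's locus and strand, 9 on another chromosome and 4 on the opposite strand, and 1 had no coordinate. Probes that match copies of a gene are uncertain.

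Named genes were the probes beyond 2-fold, the 3 highest and 3 lowest means of each subunit, the 5 largest differences between the siRNAs each way, genes of known role, the paralogs named with L, and the 3 genes with the widest spread among probes, RPS2, RPS10 and RPL31. The members and lists were chosen with earlier results of these data known. Alternatives were other background, normalisation, signal, filter, probe choice, threshold and prior settings. After seeing the data, giving the members no weight in loess, RefSeq probes at the locus alone, and leaving out RPS10 and RPS2 were added. Some genes of the lists and markers are not reported here. Precision is limited by the number of arrays.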

Additional observations from a re-analysis of the deposited data

Results flagged for a closer look

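The RPS10 probe A_23_P356484, the most 3′ of the gene, was beyond 2-fold with SUB1 siRNA 1 (-1.31) and at 0.23 with SUB1 siRNA 2, on the other side of 0, and siRNA 2 minus siRNA 1 was 1.54. The other 5 probes at the gene's locus lay between -0.14 and 0.00 with siRNA 2. With 1 array per siRNA the difference was not tested, and the siRNA 2 value ranged from 0.03 to 0.72 over the alternatives for this probe and was -0.03 as the mean of the gene's probes.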

How the results depend on the processing

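Median centring in place of loess gave ribosomal protein medians of 0.230 with siRNA 1 and 0.355 with siRNA 2, and 5 probes beyond 2-fold with siRNA 2 (2 lower, of RPS2, and 3 higher, of RPL38, RPS27 and RPS28). Feature Extraction's processed signals gave 6 probes beyond 2-fold with siRNA 2 (5 of RPS2 and 1 of RPL27A). With the brightest probe of a gene, or the mean of its probes, 1 gene was beyond 2-fold with siRNA 1 (RPS10) and 1 with siRNA 2 (RPS2). At 1.5-fold the counts were 13 and 11. At 2-fold without RPS10 and RPS2 they were 0 and 0. In the limma test, 0 probes of any gene passed the adjusted p with the processed signals or with the authors' ratios, where 5221 and 5543 had an unadjusted p under 0.05. With 1 value per gene, 1 gene (SUB1) passed by either rule. Without the filter on dim probes, 2 of 199 ribosomal protein probes and 452 of 40999 probes in all passed. The cause of these changes was not tested, except that 1 value per gene and leaving out genes lower a count by construction. The other 75 values for the group stayed within the technical spread or within 1.5 times the main count. Of 62 values of named genes, 25 kept their sign under every alternative. No paired analysis was possible because each siRNA has 1 array and replicate number 1. Leaving out an array leaves no residual degrees of freedom, so that alternative was not run.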
